A study of Mus musculus with 18 samples.

Results

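Gata1, Gata2 and Gata3 (zinc finger factors that bind GATA motifs), Mitf (a basic helix-loop-helix leucine zipper factor), Klf1 (a zinc finger factor that binds CACCC motifs), Zfpm1 (FOG1, a cofactor of GATA factors) and Tal1 (SCL, a basic helix-loop-helix factor) were chosen by name. They are 7 of the 20275 genes in the count matrix. Their levels were read in each hematopoietic cluster code of the deposited annotation, separately for each hematopoietic progenitor (HP) library. There were 65 such codes in 5 HP libraries.

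The study profiled murine bone marrow (BM) around birth by droplet single-cell RNA-Seq. HPs were sorted as CD45+Lineage-c-Kit+ cells from C57B6/J mice at embryonic day 16.5 (E16.5, 2 libraries), E18.5, postnatal day 0 (P0) and adulthood (1 library each). Each library pooled several mice, so it gives no spread between animals, and the age of the adults was given in the study's methods only as a range of weeks for all mice from which adult cells were collected. The HP libraries held 20982 of the 56201 cells, with 13974733 to 127489333 unique molecular identifiers (UMIs, counts of captured transcripts) a library and a median of 6747 to 23291.5 UMIs a cell.

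GATA factors choose between blood lineages partly by which family member occupies a site. GATA1 directs erythroid, megakaryocytic, eosinophil and mast cell differentiation, with FOG1 as its cofactor in the erythroid and megakaryocytic lineages. GATA2 maintains early progenitors and acts in mast cells and basophils, and GATA3 directs T cells and innate lymphoid cells. TAL1 joins GATA factors in a complex with LMO2 and LDB1, KLF1 activates globin and red cell membrane genes, and MITF acts in mast cells, osteoclasts and pigment cells.

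Several cell groups labelled mast or myeloid progenitor shared cell barcodes between libraries, which bears on the values of Gata2 and Mitf there. A barcode is the tag that marks 1 droplet. Of the 20982 HP cells, 1689 carried a barcode that another HP library also held, and in 960 of these the other library held it with more UMIs. The adult and first E16.5 libraries shared 330 barcodes, although the latter had only 560 cells. The second E16.5 library, with 4752 cells, shared 1 to 8 barcodes with any other HP library. Adult cells coded Mast4i and Mast4ii numbered 321, and in 261 of them the barcode was the copy with fewer UMIs. For 255 of these the copy with the most UMIs was in the first E16.5 library, and 254 of the 261 had a mast, Mono/Mast or basophil code in the other library. The adult copies of barcodes of the first E16.5 library held a median of 2.12% of the UMIs of the other copy (interquartile range 2.05% to 2.19%, 329 copies). P0 Mast4 held 208 such copies among 274 cells, E18.5 Mast/Bas 40 among 41 and adult MyP4 332 among 701. For 277 of the MyP4 copies the other copy was in the E18.5 library, and for 150 of the P0 Mast4 copies in the first E16.5 library. In another 58 of the P0 Mast4 copies both copies were low, the other one under 3000 UMIs. The plot of UMIs in both copies shows these groups as bands below the line of equal UMIs. Gata2 in these 5 codes, and other genes where these codes rank high, are given below with and without these copies, and no reason for the sharing was tested.

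**Figure D1:**
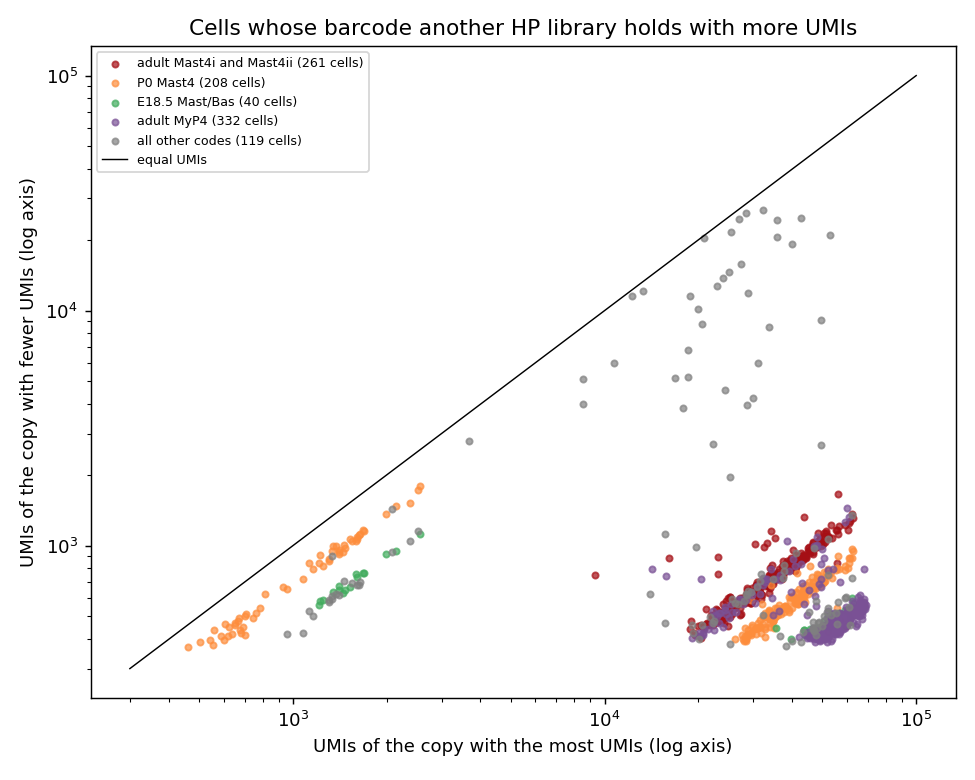
Cells whose barcode another HP library held with more UMIs (960 points). The x axis is the number of UMIs of the copy with the most UMIs and the y axis that of the copy with fewer, both on log axes. Colors mark the cluster code of the copy with fewer UMIs and the line marks equal UMIs. Adult mast codes form a band near 2.12% of the other copy.

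Labels were compared with marker genes. In the erythroid, megakaryocyte, basophil, eosinophil/basophil and B lineage codes, and in the T cell and NK codes taken as 1 class, no cluster had more markers of another cell type than of its own among its 10 leading genes. Of 11 mast clusters 3 did (P0 Mast4, adult Mast4ii, and Mast2ii of the second E16.5 library by the eosinophil gene Prg2 alone), and of 7 hematopoietic stem and progenitor cell (HSPC) clusters all but P0 HSPC2 and HSPC3. So did 3 of 10 monocyte clusters, 3 of 6 myeloid progenitor clusters and 1 of 2 Mono/Mast clusters. Among the HSPC clusters the mismatch was Flt3 alone, a gene put on the dendritic cell list, in adult HSPC5 and in HSPC1 of the second E16.5 library. In E18.5 HSPC2 it was Col3a1 alone. In Mono/Mast of the first E16.5 library it was the erythroid list gene Aqp1 alone. The monocyte clusters were E18.5 Mono2 and adult Mono5, whose only gene of the dendritic cell list was Siglech, and adult Mono6, by H2-Aa and H2-Eb1. P0 Mono2 also had Siglech, beside 1 marker of its own class. Both Mono2 codes had Sparc of the stroma list, and Sall1, P2ry12, Olfml3 and Crybb1, among their leading genes. What cells the Mono2 codes held was not tested. The mast and HSPC codes were therefore not tested between stages, and ranges over such codes are ranges of clusters, not of a cell type. Some TCell5 clusters were led by NK genes (Xcl1, Klrc1, Klrc2 and Il2rb in the second E16.5 library). The rule passes a cluster with no listed marker at all among its 10 leading genes. EryP1, MegP1, Bas1 and TCell1, TCell2, TCell3 and TCell6 of the second E16.5 library passed in this way. So did TCell3 of the first, although its mast markers were high, as given below. The same holds for Mast1 and Mast2i of both E16.5 libraries, Mast2ii of the first, and P0 HSPC2. It also holds for E18.5 Mono1i, Mono1iii and Mono1iv, P0 Mono1 and some other codes. Passing is therefore no evidence for a name.

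Levels are CPM, the UMIs of a gene scaled to 1000000 UMIs of the cell group, with exact Poisson 95% intervals. They come from 78 groups of 1 cluster in 1 library that had at least 20 cells and 100000 UMIs. Intervals cover counting error only, and a stage other than E16.5 had 1 library. Clusters were built from all genes of these cells, so differences between clusters are a description.

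**Figure D2:**
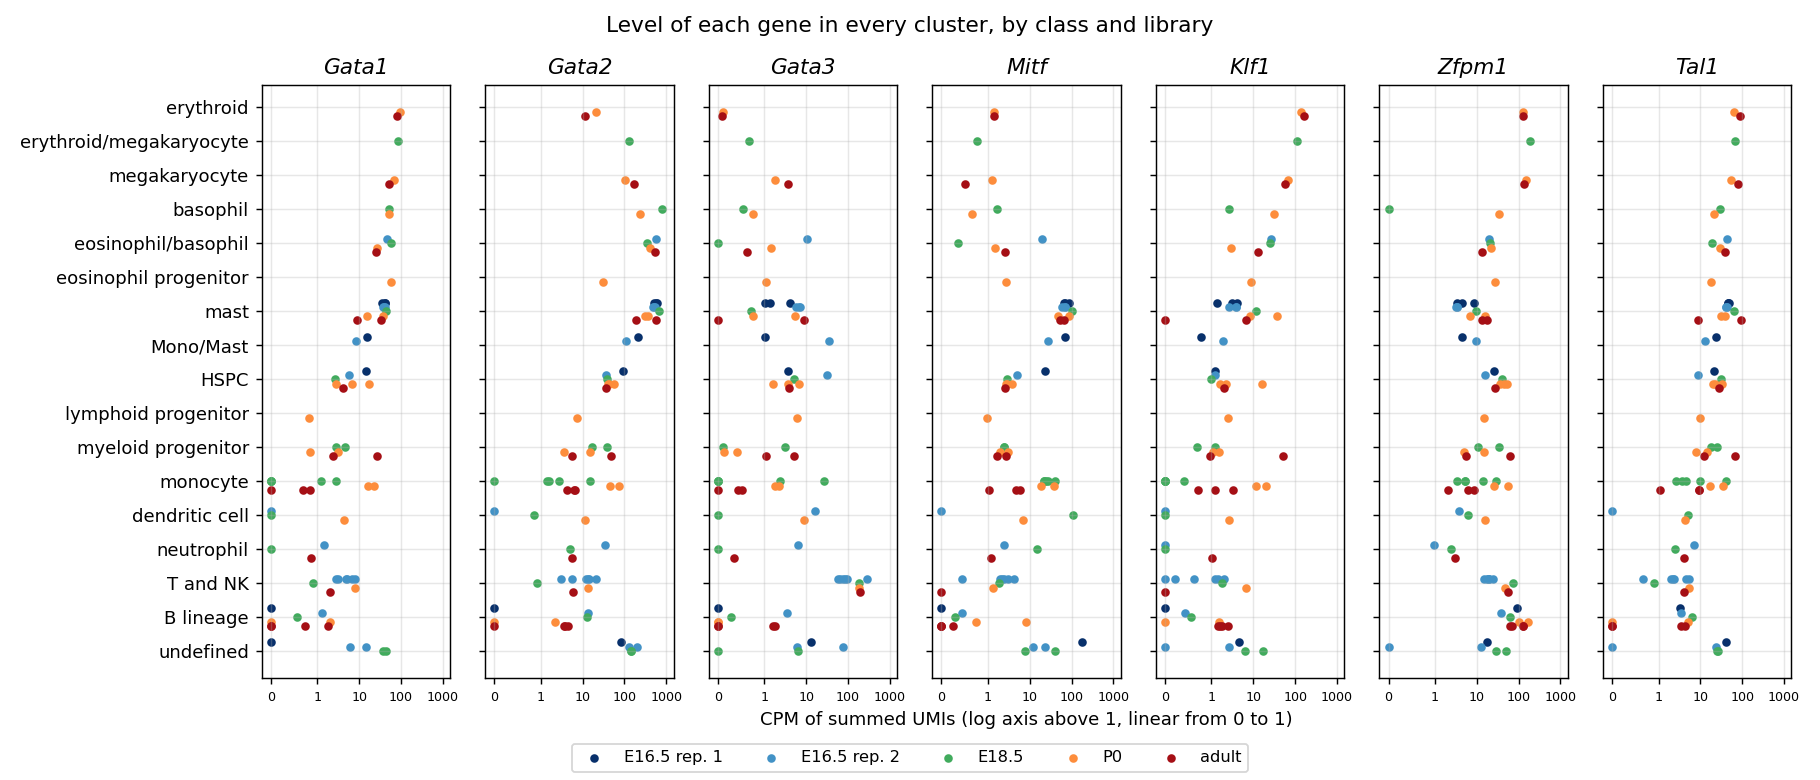
CPM of the 7 genes (1 panel each) in 78 groups of cells. Each point is 1 cluster in 1 library, rows are classes of cluster codes and colors are libraries, and the axis is logarithmic above 1 and linear from 0 to 1. Gata1 and Klf1 lie highest in erythroid codes, Tal1 in erythroid, megakaryocyte and mast codes (the highest point, adult Mast4i, rests on 14 UMIs), Gata2 in basophil and mast codes, Gata3 in T and NK codes, and Zfpm1 in erythroid, megakaryocyte and B lineage codes.

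Gata1 (chromosome X, 7959260 to 7978071, minus strand, mm10) was highest in the red cell lineage. Erythroid progenitors of P0 (EryP1) had 92.7 CPM (88.2 to 97.4, 1597 UMIs), the mixed EryP/MegP cluster of E18.5 had 87.3 (81.3 to 93.6), and adult erythroid progenitors (EryP2) had 78.9 (74.1 to 83.9). The intervals of EryP1 and EryP/MegP overlapped, as did those of EryP/MegP and EryP2. Megakaryocyte progenitors of P0 (MegP1) followed with 70.1 CPM, E18.5 Eos/Bas2 had 56.7, eosinophil progenitors of P0 (EosP) had 56.6 (46.3 to 68.5) and adult megakaryocyte progenitors (MegP2) 52.1. Basophil codes had 50.5 and 52.7 CPM. The 18 cells of Eos/Bas1 in the first E16.5 library, under the size limit, had 90.1 CPM (60.8 to 129). Mast clusters of both E16.5 libraries, E18.5 Mast3 and P0 Mast3 had 36.0 to 43.6 CPM, so Gata1 in mast cells was lower than in either erythroid cluster. In B lineage codes Gata1 did not exceed 2.04 CPM and in neutrophil codes 1.48 CPM.

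Gata2 (chromosome 6, 88193891 to 88207032, plus strand) was highest in basophil and mast codes. The E18.5 basophil cluster Bas1 had 776 CPM (736 to 817, 1445 UMIs), E18.5 Mast3 had 667 (642 to 692), and the 6 mast clusters of the 2 E16.5 libraries had 479 to 600. P0 Mast3 was lower with 368 CPM (349 to 387), as was Bas2 of P0 with 231 (223 to 240). Eosinophil/basophil codes ranged from 341 CPM in E18.5 Eos/Bas2 to 567 in Eos/Bas1 of the second E16.5 library, and the 18 cells of that code in the first library, under the size limit, had 1009 CPM. Gata2 was lower in the erythroid and megakaryocytic codes, with 129 CPM in EryP/MegP, 103 in MegP1, 173 in MegP2, 21.4 in EryP1 and 11.5 in EryP2. EosP had 31.3 CPM. The HSPC codes with no such mismatch, P0 HSPC2 and HSPC3, had 56.5 and 42.5, and the other clusters of that name 36.7 to 94.7. The highest value in B lineage codes was 13.2 CPM, above that of EryP2.

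Gata1 as a share of all Gata1 and Gata2 UMIs sets both levels of a cluster side by side. Single-cell 3′ counts do not scale with transcript length, but the capture of 2 genes can differ, so the share is compared between clusters only. Adult EryP2 had 87.2% Gata1 (exact binomial 95% interval 85.2 to 89.1) and EryP1 of P0 81.3% (79.5 to 83.0). EosP of P0 followed with 64.4% (56.6 to 71.8). MegP1 and EryP/MegP had 40.6% and 40.5%, with overlapping intervals, and MegP2 had 23.1% (20.4 to 26.03). Bas2 had 18.6% and Eos/Bas2 14.3%. P0 HSPC3 and HSPC2 had 6.11% and 10.5%, P0 HSPC4, with the myeloid genes Mpo and Elane among its leading genes, had 29.9%, and MyP2 of P0 had 16.8%. Bas1, with the most Gata2, had 6.11% as well. Mast clusters of the E16.5 libraries, E18.5 Mast3 and P0 Mast3 lay between 6.02% and 9.02%. Eos/Bas4 of the adult was lowest among clusters with at least 100 UMIs of both genes together, at 4.60% (3.32 to 6.18).

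**Figure D3:**
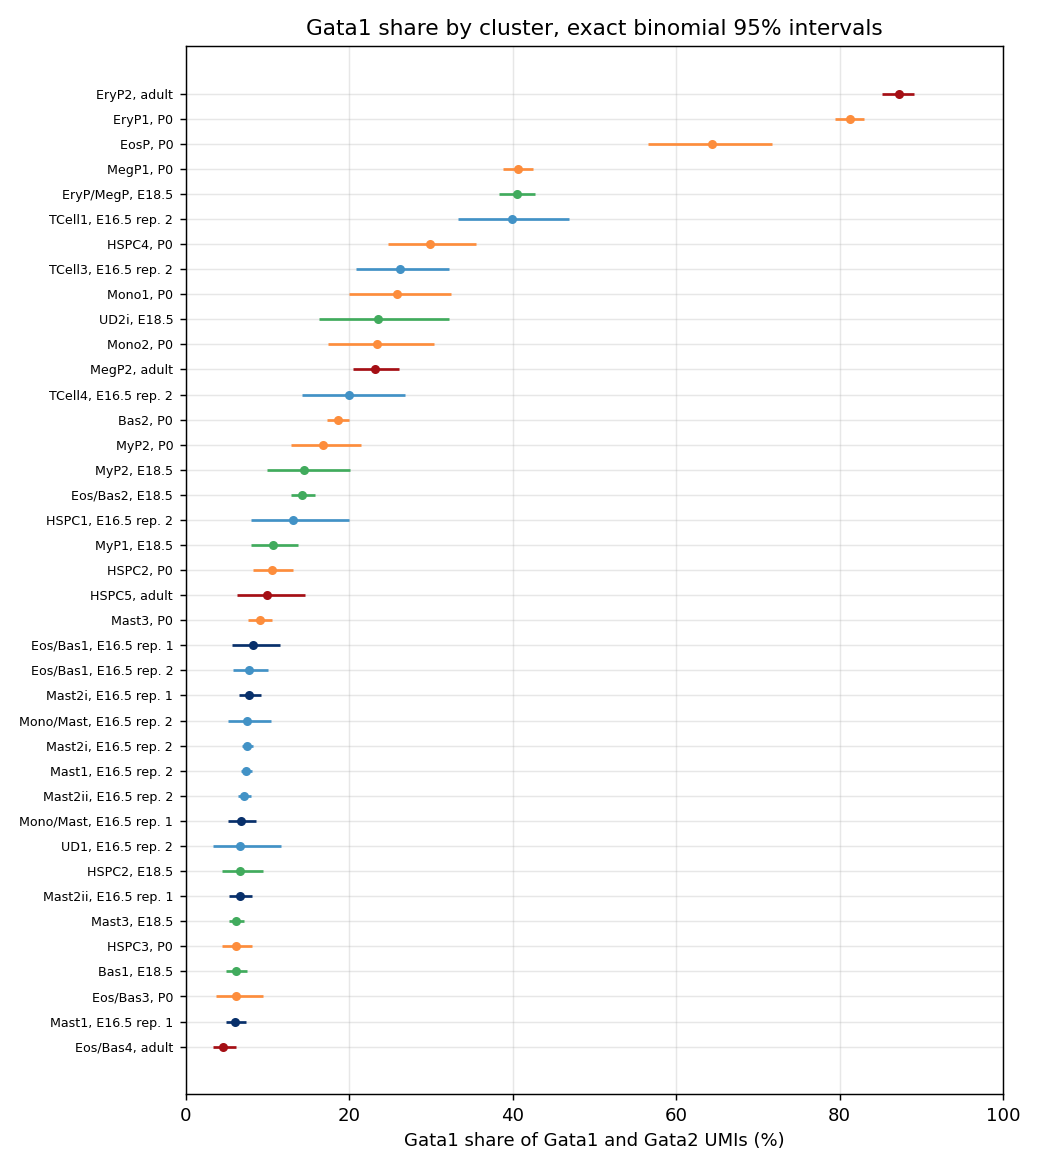
Gata1 share of the summed Gata1 and Gata2 UMIs, in percent, for clusters with at least 100 UMIs of both genes together. Points are clusters in 1 library, bars are exact binomial 95% intervals (counting error) and colors are libraries. EryP2, EryP1 and EosP lie above 60% and the mast clusters below 10%.

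Both genes were often read in 1 cell. In EryP1 42.6% of 465 cells had UMIs of Gata1 and Gata2, 51.6% had Gata1 alone and 1.94% Gata2 alone. In Bas1 25.9% of 274 cells had both, 0.365% had Gata1 alone and 70.1% Gata2 alone. In EryP/MegP 78.5% of 205 cells had both. These shares depend on depth. After thinning each cell to 1000 UMIs, Gata2 was read in 44.0% of Bas1, 49.7% of E18.5 Mast3 and 32.3% of P0 Mast3 cells (95% unthinned in the last), against 6 of 1820 thinned B lineage cells. Gata1 was then read in 8.41% of EryP1 and 9.30% of EryP2 cells (94.2% unthinned in EryP1), against 3 of 1820 B lineage cells.

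Copies with fewer UMIs carried most of the Gata2 UMIs in adult Mast4i and Mast4ii, P0 Mast4 and E18.5 Mast/Bas, but none in Mast3 of E18.5 or P0. By their leading genes P0 Mast4 (with collagen genes) and Mast4ii (with C1q genes) went against the mast name. Adult Mast4i had 567 CPM of Gata2 from 85 UMIs in 201 cells, and without the copies 3 UMIs in 16 cells were left, equal to the 3-count limit of 175 CPM. Adult Mast4ii had 186 CPM with all cells and 142 (61.3 to 280) without, from 8 UMIs. P0 Mast4 had 311 CPM with all cells and 126 from 7 UMIs without the copies, and E18.5 Mast/Bas had 21 UMIs with all cells and 3 in the 1 cell left. Of the 960 copies 169 had a Gata2 UMI, and for 150 of these (88.8%) the other copy also had one. Among the 791 copies without a Gata2 UMI the other copy had one in 490 (61.9%). Mitf in adult Mast4i went from 10 UMIs to 0 in the 16 cells, which allows up to 175 CPM at 3 counts. In adult MyP4 Gata2 was 48.9 CPM with all cells and 26.2 without, and Klf1 52.3 and 57.1.

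In the pair of E16.5 libraries the mast clusters could be compared between libraries. Gata1 in the second library was 0.969 to 1.06 times that in the first over Mast1, Mast2i and Mast2ii, with overlapping intervals in each. Gata2 was 0.851 to 1.00 times, and the intervals were apart in Mast1 (563 against 479 CPM) and Mast2ii (600 against 534). The codes HSPC1 and Mono/Mast differed more. Gata2 in HSPC1 was 94.7 CPM in the first library and 37.1 in the second, and in Mono/Mast 215 and 106.

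Mitf (chromosome 6, 97807052 to 98021349, plus strand) was higher in the mast codes than in the basophil and most eosinophil/basophil codes, which are also rich in Gata2. Mast clusters of the E16.5 libraries had 60.7 to 87.2 CPM, E18.5 Mast3 had 105 (95.6 to 116) and P0 Mast3 had 86.0 (77.0 to 95.7). Basophil codes had 0.664 and 1.61 CPM, and eosinophil/basophil codes 0.357 to 2.52 except 19.6 in Eos/Bas1 of the second E16.5 library. Bas1, with more Gata2 than any mast cluster, thus had 1.61 CPM of Mitf. Mono/Mast of the first E16.5 library, with 215 CPM of Gata2, had 69.9 CPM of Mitf, within the range of the mast clusters, and that of the second had 26.7. In both libraries Mono/Mast was led by Cbr2, Timd4, Lyve1 and Folr2 among other genes. C1qa of the macrophage list was at 1754 and 1372 CPM there, against at most 58.9 in the mast clusters of E16.5. Which of its cells gave the Mitf and Gata2 UMIs was not tested. The monocyte codes of E18.5 and P0 that passed the marker check had 18.5 to 37.8 CPM of Mitf. The highest was Mono1 of P0, whose leading genes held no monocyte or macrophage marker of the lists. Those of E18.5 Mono1i, Mono1iii and Mono1iv held none either. Mono4, the one code of the adult that passed, had 5.76 (3.97 to 8.09).

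The cluster coded DC2 at E18.5 had 111 CPM of Mitf (92.9 to 132, 129 UMIs in 43 cells) with 0.863 CPM of Gata2. Its leading genes were Ctsk, Atp6v0d2, Dcstamp, Ocstamp, Mmp9 and Acp5, genes of bone-resorbing cells, and not the dendritic cell markers of its code. Ctsk was at 1552 CPM and Acp5 at 1850 there, both the highest of all groups. Mono1 of P0, also led by Ctsk (643 CPM), had 37.8 CPM of Mitf. The undefined cluster UD2 of the first E16.5 library had 178 CPM of Mitf (127 to 243) from 40 UMIs in 29 cells, at a median of 902 UMIs a cell. Its leading genes were mixed, with Ptprz1, Sostdc1, Map2, Ptn and Fabp7 ahead of Mmp9, Ctsk and Acp5. The same code in the second E16.5 library, led by Ptn, Meg3, Dcn and Col3a1, had 12.3 CPM of Mitf from 2 UMIs. Ctsk was at 370.2 CPM in the former and 337.3 in the latter, and Acp5 at 646.7 and 515.2. Mmp9 differed more, as Mitf did, with 356.8 and 55.2 CPM, and Dcstamp (26.8) and Ocstamp (17.8) had no UMI in the latter. These genes of bone-resorbing cells were named after their values were seen.

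**Figure D4:**
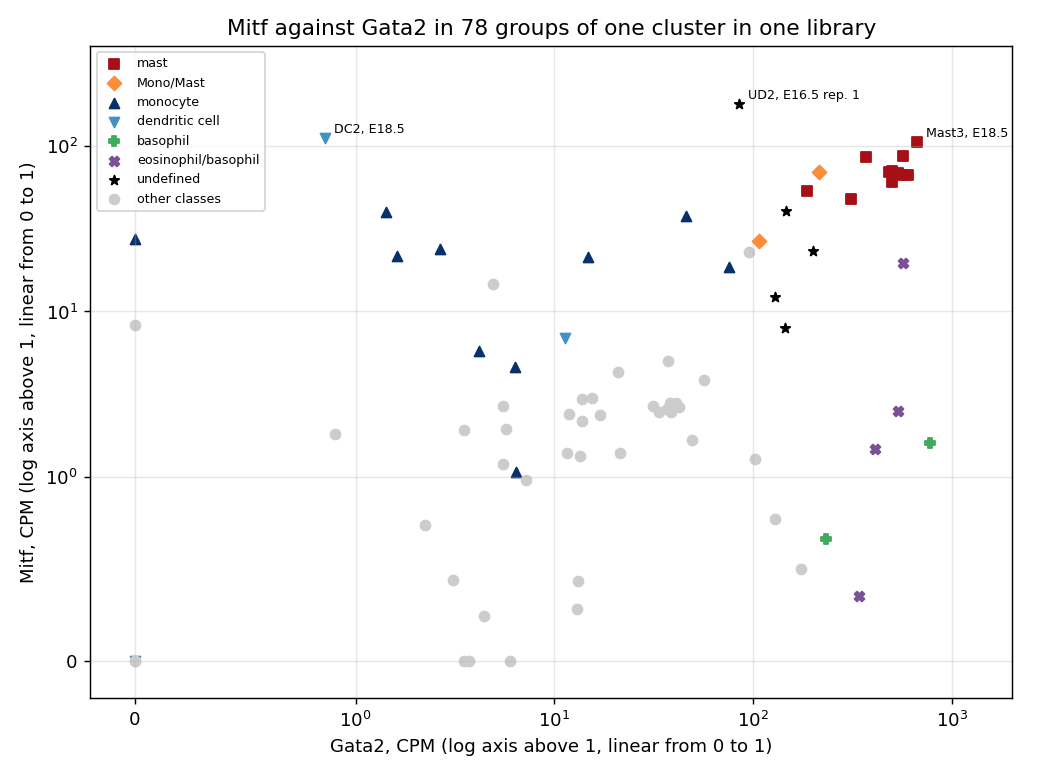
Mitf against Gata2, in CPM, for 78 groups of 1 cluster in 1 library, with both axes logarithmic above 1 and linear from 0 to 1. Symbols mark classes of cluster codes. Mast clusters lie high on both axes, basophil and most eosinophil/basophil codes high on Gata2 only, and the monocyte codes and DC2 of E18.5 (111 CPM of Mitf) higher on Mitf than on Gata2. Both P0 monocyte codes are higher on Gata2 (46.0 and 75.1 CPM).

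Klf1, Tal1, Gata1 and Mitf have promoters with motifs that these factors bind. The stretches below come from RefSeq promoters (GRCm38.p6, the assembly of mm10), which span 250 bases before to 50 after a gene's start. They are shown as examples because Gata1, Klf1 and Tal1 were high in the erythroid clusters and Mitf was not. Capitals mark GATAA or CACCC on either strand, so that TTATC and GGGTG are also marked.
Klf1, chr8:84901853-84901921, plus strand: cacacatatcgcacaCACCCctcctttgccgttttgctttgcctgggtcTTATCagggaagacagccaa
Tal1, chr4:115056206-115056307, plus strand: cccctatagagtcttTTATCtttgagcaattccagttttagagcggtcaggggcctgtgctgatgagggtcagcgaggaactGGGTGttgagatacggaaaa
Gata1, chrX:7967943-7967999, minus strand: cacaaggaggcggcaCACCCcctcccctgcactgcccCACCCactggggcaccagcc
Mitf, promoter 3, chr6:97991756-97991782, plus strand: ataagctgctgctgtGATAAcgtctcc
None of the 4 stretches overlapped an annotated exon. The Klf1 and Tal1 stretches held 1 GATAA and 1 CACCC each, the Gata1 stretch 2 CACCC and no GATAA, and the Mitf stretch 1 GATAA and no CACCC. Of the other Mitf promoters, promoter 1 held neither motif and promoter 2 held 1 of each, as Klf1 and Tal1 did, and the other Tal1 promoter held neither. No GATAA was in the promoters of Gata2, Gata3 or Zfpm1, while CACCC occurred 3 times in those of Zfpm1 and Gata3 and once in 1 of the 2 of Gata2. The contrast between the genes thus depends on the promoter shown. Mitf promoter 3 lies inside the span of the gene given above, and 3′ counts do not tell which promoter these cells used. In the 250 bases before the start, GATAA was found in 22.6% and CACCC in 52.0% of 32851 mouse promoters, so such matches are common, and a match is not evidence of binding.

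Klf1 (chromosome 8, 84901928 to 84905291, plus strand) was highest in the red cell codes. EryP2 had 164 CPM (157 to 171, 2117 UMIs), EryP1 140 (135 to 146) and EryP/MegP 112 (105 to 119), and these intervals were apart. MegP1 had 66.0 CPM and MegP2 56.1, with overlapping intervals. Outside these codes and MyP4 the highest deep group was Bas2 with 31.5 CPM (28.4 to 34.8), followed by Eos/Bas1 of the second E16.5 library with 26.1 and Eos/Bas2 with 24.97. P0 Mast4 had 36.9 from 7 UMIs, and 89.9 (29.2 to 210) from the 5 UMIs in the 66 cells that were not copies. In the mast clusters of E16.5 Klf1 was at 1.36 to 4.09 CPM, and in Mast3 of E18.5 and P0 at 11.7 (8.63 to 15.4) and 8.16 (5.58 to 11.5). Klf1 and Gata1 were read together in 91.8% of EryP1 cells, in 51.7% of MegP1 cells and in 0 of 274 Bas1 cells, at a median of 37938, 23062.5 and 6565.5 UMIs a cell. Thinned to 1000 UMIs, cells with both were 10 of 464, 6 of 686 and 0 of 273. The last allows up to 1.34% of cells with a UMI of both (exact binomial), beside an interval of 1.04% to 3.93% in EryP1, and bounds cells with both UMIs and not cells that express both genes.

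Tal1 (chromosome 4, 115056426 to 115071755, plus strand) was highest in erythroid, megakaryocytic and mast codes and in adult MyP4 (65.8 CPM from 39 UMIs, 80.9 without the copies). EryP2 had 89.9 CPM (84.8 to 95.2), MegP2 81.3 (72.7 to 90.7), EryP/MegP 68.9, E18.5 Mast3 65.2 (57.7 to 73.4), EryP1 63.0 and MegP1 55.6. Mast clusters of the E16.5 libraries followed with 40.8 to 48.3 CPM. Eosinophil/basophil codes reached similar levels (19.4 to 42.8), as did Mono2 of E18.5 with 41.3. Adult Mast4i had 93.3 CPM from only 14 UMIs (51.0 to 157), of which 2 were left without the copies. Clusters coded HSPC had 8.74 to 33.1 CPM of Tal1, with 33.1 and 21.9 in P0 HSPC2 and HSPC3. T and NK codes had at most 5.48 and B lineage codes at most 6.22.

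Zfpm1 (chromosome 8, 122282141 to 122337251, plus strand) was high in the erythroid and megakaryocytic codes, in another order than Gata1, and in B lineage codes, where Gata1 was low. EryP/MegP had 183 CPM (174 to 192), MegP1 151 (145 to 157), MegP2 135, EryP1 131 and EryP2 129, with overlapping intervals among the last 3. B lineage codes had 38.1 to 169 CPM, with 169 (121 to 229, 41 UMIs) in BCell2 of P0, 103 in Bcell1 of P0 and 129 in Pre/Pro-B2 of the adult, where Gata1 was at most 2.04 CPM. The mast clusters of E16.5, E18.5 Mast3 and P0 Mast3 had at most 9.76 CPM of Zfpm1 beside at least 36.0 of Gata1. No Zfpm1 UMI was read in Bas1, whose 3-count limit was 1.61 CPM, while Bas2 had 34.1 CPM. After thinning, Zfpm1 was read in 18.0% of EryP/MegP cells, 16.3% of MegP1 cells and 14.0% of EryP1 cells, against 0 of 691 neutrophil-coded cells.

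Gata3 (chromosome 2, 9857078 to 9890034, minus strand) was highest in the T and NK codes. TCell5, the code held by all 4 perinatal libraries, had 277 CPM (258 to 298, 745 UMIs) in the larger E16.5 library. It was lower in the E18.5 library with 187 (162 to 214) and in that of P0 with 183 (154 to 216), and adult T/NK cells had 194 (157 to 237). In the first E16.5 library TCell5 held only 13 cells, with 669 CPM. The other 5 T cell codes of the second E16.5 library, whose 8 T cell markers summed to 5850 to 9163 CPM against 3238 in TCell5, had 56.7 to 93.2 CPM of Gata3. The undefined cluster UD1 of that library (76 cells) lay in the same range with 77.6 CPM (59.2 to 99.9), with T cell markers at 1492 CPM and NK and innate lymphoid markers at 1060. In that library Gata3 was also read at 35.4 CPM in Mono/Mast and 31.5 in HSPC1, against 1.04 and 3.60 in the first. The summed level of the 8 T cell markers moved with it, with all 8 read and 4075 CPM in Mono/Mast of the second library and 3 read and 3.37 CPM in that of the first. In HSPC1 it was 1530 and 205 CPM. The part of such transcripts in the Gata3 values was not tested. In mast clusters Gata3 was 5.83 to 7.14 CPM in the second library and 1.01 to 4.09 in the first.

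**Figure D5:**
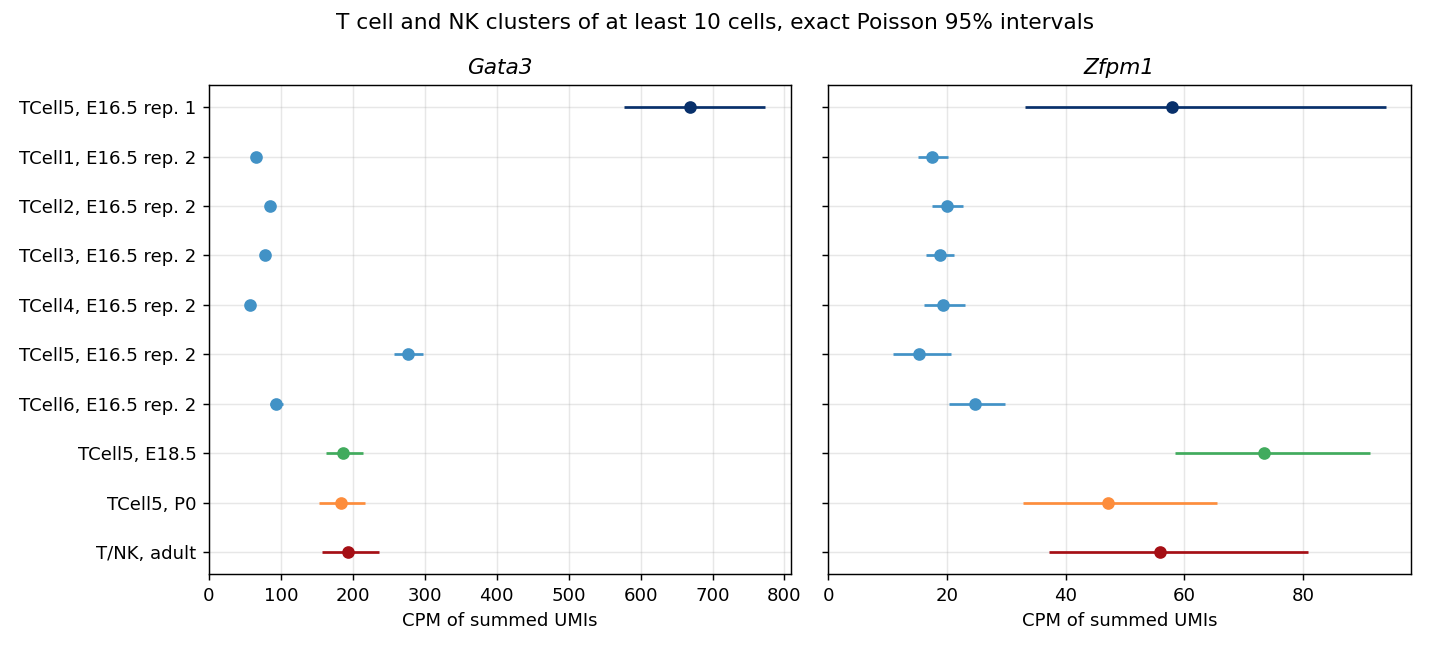
Gata3 and Zfpm1 in CPM for T cell and NK clusters of at least 10 cells, with exact Poisson 95% intervals (counting error) and colors for libraries. TCell5 of E18.5 and P0 and T/NK of the adult lie near 183 to 194 CPM of Gata3, and the other 5 T cell codes of the second E16.5 library between 56.7 and 93.2.

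Whether these genes differed between stages within T and NK cells was tested on UMIs summed per library (edgeR quasi-likelihood test, 8584 genes, Benjamini-Hochberg adjustment). The libraries gave 18, 2141, 65, 68 and 109 cells in order of stage. Different codes hold them. E18.5 and P0 had TCell5 cells only and the adult T/NK cells only, while only 186 of the 2141 cells of the second E16.5 library were coded TCell5, so cluster mix and stage cannot be told apart in this fit. The fit was therefore repeated on the TCell5 and T/NK cells alone, an alternative added after seeing the data. Only the 2 E16.5 libraries gave a spread, which the single libraries were assumed to share. Of the 7 genes, 4 passed the filter on low counts (Gata1, Gata2, Gata3 and Zfpm1), and 1, 0 and 0 of them passed an adjusted p of 0.05 at E18.5, P0 and adulthood, against 1.74%, 1.13% and 3.17% of all genes tested. At an unadjusted p of 0.05 the edgeR test passed 1, 0 and 1 of them, against 5.85%, 5.3% and 13% of all genes. DESeq2 called 0 at each stage, against 0.186%, 0.175% and 0.746% of all genes.

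Summed over all T and NK codes, Gata3 had 461 and 86.3 CPM in the E16.5 pair, then 187, 183 and 194 in the order E18.5, P0 and adult. In this sum all later values lay between the 2 E16.5 values. The log2 differences from E16.5 were -0.44 (SE 0.67), -0.51 (SE 0.68) and -0.22 (SE 0.67), with edgeR adjusted p of 1, 1 and 0.931. Zfpm1 had 84.7 and 19.2 CPM at E16.5 and 73.5, 47.1 and 56.0 later, again within the E16.5 range, and no adjusted p below 0.816.

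Gata2 had 59.8 and 11.1 CPM at E16.5, then 0.908 (1 UMI), 13.5 and 6.00 in the same order. It was lower at E18.5 by the edgeR test (log2 difference -4.99, SE 1.25, adjusted p = 0.00578), with the E18.5 value below both E16.5 values. All 24 Gata2 UMIs of the first E16.5 library were in its 5 cells coded TCell2 and TCell3. There the 12 markers of the Mast list summed to 18460 CPM in TCell3 and no UMI of the 8 T cell markers was read. Among TCell5 and T/NK cells alone the log2 difference was -3.34 (adjusted p = 0.871). Without those 5 cells it was -3.13 with an adjusted p of 1, and over all alternatives the adjusted p ranged from 0.0057 to 1.

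Markers of other cells moved in the same comparison. Of the 10 mast markers tested, 5, 4 and 8 were lower at E18.5, P0 and adulthood than at E16.5, against 0.734%, 0.326% and 0.909% of all genes. An example was Cma1 (mast cell chymase) with 1851 and 833 CPM at E16.5 and 4.54, 8.07 and 10.0 later. Of the 8 NK and innate lymphoid markers, 4, 3 and 5 were higher, against 1%, 0.804% and 2.26% of all genes, among them Ncr1, an activating NK receptor, at 174 CPM in the adult and 2.49 and 0.652 at E16.5. Ptcra, the pre-T cell receptor chain, had 2.49 and 248.5 CPM at E16.5 and 0.908, 5.38 and 2.00 later, so only the second E16.5 library was high. In the adult all 7 neutrophil markers tested were higher, as were 4 of 6 B cell, 4 of 6 dendritic cell and 4 of 6 myeloid progenitor markers, and at P0 3 of 6 macrophage markers were. Among TCell5 and T/NK cells alone, 67, 68 and 376 of 8525 genes were called in either direction. In that fit 5, 4 and 6 of 8 mast markers tested were lower and 1, 1 and 4 of 8 NK and innate lymphoid markers higher. In the adult all 7 neutrophil, 5 of 6 B cell and 5 of 6 myeloid progenitor markers were higher. Their part in the values of the GATA factors was not tested.

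Relatives and partners of the 7 genes were tested in the same fit. None of 9 partner genes (Lmo2, Ldb1, Tcf3, Cbfa2t3, Runx1, Gfi1b, Nfe2, Fli1 and Myb) was called by edgeR at any stage, while 2, 1 and 1 passed an unadjusted p of 0.05 (5.85%, 5.3% and 13% of all genes) and DESeq2 called 0. They had a median log2 difference of -1.02, -0.70 and -0.70 against -0.05, -0.03 and -0.09 over all genes. This negative sign was not kept among TCell5 and T/NK cells alone, where most of the 8 partners tested had positive differences at each stage. Myb had 1.44, 1.31 and 2.27 there, while Runx1 had -0.29, 0.07 and -0.65. Of the 7 relatives tested edgeR called 1 at each stage, Klf2, a factor of lymphocyte quiescence, and DESeq2 0, against 1.74%, 1.13% and 3.17% of all genes by edgeR. Klf2 had 37.4 and 15.7 CPM at E16.5 and 133, 141 and 104 at the later stages (log2 difference 2.53, SE 0.66, adjusted p = 0.0105 at E18.5). Among TCell5 and T/NK cells alone this difference was 0.16 (SE 0.53, adjusted p = 1), and no relative was called. There Lmo2 was called higher at P0 and in the adult and Myb in the adult (edgeR log2 differences 3.23, 4.14 and 2.27). In that fit 67, 68 and 376 of 8525 genes were called at E18.5, P0 and adulthood.

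Across clusters the partners took other shapes. Gfi1b, a transcriptional repressor that acts in the erythroid and megakaryocytic lineages, was highest in EryP2 (55.9 CPM) and EryP1 (51.9). It was at 0.409 CPM in Mast1 of the first E16.5 library. Lmo2, which bridges TAL1 and GATA factors, was at 198 to 341 CPM in the erythroid and megakaryocytic codes and at 7.78 and 4.47 CPM in Mast1 of the 2 E16.5 libraries, while Ldb1, which LMO2 binds, was at 45.0 and 49.3 CPM there and 57.5 to 94.3 in the former. Tal1 was thus read at over 40 CPM in E16.5 mast clusters where Lmo2 was below 10. Lyl1, the closest relative of Tal1, was at 57.3 and 54.9 CPM in Mast1. Gata4 had no UMI in any group, and Gata6 was highest at 21.6 CPM in Mono1iv of E18.5, a cluster with many macrophage transcripts. Gata5 was not analysed here.

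Genes with the most similar pattern over the 78 groups were sought among 7331 genes by Pearson's r of log2(CPM + 10). The groups share libraries and depth, so r is a description. They include groups made largely of copies with fewer UMIs, such as adult Mast4i, where Vps26a was highest. Klf1 was closest to Tspo2 (0.95), Atp1b2 (0.93) and Ermap (0.93), the last a red cell membrane protein. Gata2 was closest to Slc18a2 (0.94), the vesicular monoamine transporter, then Gm11697 and Gna14 (both 0.89). Gata3 was closest to Cd160 (0.93), Tcrg-C4 (0.93) and Trat1 (0.92), all genes of T or NK cells. Gata1 was closest to Icam4 (0.88), a red cell adhesion molecule, with C1qtnf12 (0.82) also among its nearest, and Mitf was closest to Spred1 (0.85), Wsb2 (0.85) and Vps26a (0.84). Tal1 was closest to Gata1 itself (0.78), then Icam4 and Hk1 (both 0.77). Zfpm1 had the weakest matches, Car2 (0.74), Zranb2 (0.72) and Slc43a1 (0.72). Among the 7 genes, Gata1 had r of 0.78 with Tal1, 0.76 with Gata2 and 0.74 with Klf1, but 0.13 with Zfpm1, its cofactor.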

How the data were processed

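Bone marrow cells were profiled with the Chromium single cell 3′ v3.1 chemistry, with antibody tags in the same cells. Per the submitters' processing notes and methods, the authors ran Cell Ranger 3.1.0 on mm10 and Seurat 3.1.5 in R 4.0, kept genes seen in enough cells, and removed cells with few UMIs, high mitochondrial share or the most genes or UMIs (putative doublets). The deposited matrix holds raw UMI counts and the deposited annotation gives library and cluster code. No doublet caller was run here.

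Counts were summed over the cells of a cluster in a library (at least 20 cells and 100000 UMIs for the order of levels), scaled to CPM and given exact Poisson 95% intervals. Shares have exact Clopper-Pearson intervals, after thinning each cell to 1000 UMIs where stated. Intervals and the limit of 3 counts cover counting error only. T and NK codes were tested with edgeR 4.0.16 (TMM, filterByExpr, quasi-likelihood F test, Benjamini-Hochberg over all genes, 1 residual degree of freedom) in R 4.3.3, with SE taken from the log2 difference and its F statistic. The E16.5 libraries are labelled 1 and 2, and whether they came from separate pools of mice was not given. The p-values set a stage difference against the spread between these 2 libraries, moderated over all genes tested. A gene's own spread in the pair thus counts only in part. The 2 libraries also differ in their mix of T and NK codes. A class was left untested when a cluster of it had more markers of another type than its own among its 10 leading genes, which removed mast and HSPC codes. The script was tested on simulated data. Alternatives were DESeq2 1.42.0, upper quartile scaling, other filters, other denominators, other thinning and leaving out each E16.5 library. Leaving out shared barcodes, leaving out the 5 cells above, and keeping TCell5 and T/NK cells alone were added after seeing the data. Other steps used Python 3.11.15, numpy 2.4.6, scipy 1.17.1, pandas 2.3.3 and matplotlib 3.10.9.

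The 7 genes and all lists were chosen with earlier results of these data known. Other genes named are members of those lists, the 3 genes most like each of the 7, and leading genes of a cluster. A gene among those most like Gata1 is not reported here. Positions are from GENCODE vM21. Genes that overlap Gata3, Mitf and Zfpm1 are not in the count matrix, and reads shared with them could not be separated.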

Additional observations from a re-analysis of the deposited data

Results flagged for a closer look

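Stromal libraries (CD45-Ter119- cells) entered none of the comparisons above, and for 6 of the 7 genes the highest stromal level had an interval wholly above the limit of 3 counts. In the P0 stromal cluster UD2 (387 cells), Gata2 was at 98.64 CPM (63.2 to 147, 24 UMIs), Gata3 at 78.09 (47.0 to 122) and Zfpm1 at 69.87 (40.7 to 112), with no UMI of Ptprc, the CD45 gene, which allows up to 12.3 CPM at 3 counts, and mast markers at 12.3 CPM. Mitf was at 290.0 CPM (227 to 365, 72 UMIs) in the P0 stromal cluster UD3 (129 cells), with Ptprc at 12.1 CPM. Tal1 was at 49.6 CPM (40.0 to 60.8) in adult sinusoidal endothelial cells (coded SECs), again with no Ptprc UMI, and mast markers there summed to 33.4 CPM. Klf1 was at 9.609 CPM (5.49 to 15.6, 16 UMIs) in adult cluster P4.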

How the results depend on the processing

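Counts of genes called in T and NK cells depended on the tool. DESeq2 called 16, 15 and 64 genes at E18.5, P0 and adulthood, upper quartile scaling 30, 27 and 113, and the fit without the 5 cells coded TCell2 and TCell3 of the first E16.5 library 87, 62 and 172, against 149, 97 and 272. A filter of at least 1 count gave 259 at P0, and TCell5 and T/NK cells alone 67, 68 and 376. Unadjusted p was below 0.05 for 502, 455 and 1114 genes. Gata2 at P0 turned to 0.70 (log2) without those 5 cells and to 0.34 in TCell5 and T/NK cells alone, and Zfpm1 at P0 to -0.073 with DESeq2 and -0.028 with the 1 count filter. The cause was not tested. Gata2 at E18.5 had an adjusted p of 1 with DESeq2 and 0.273 with upper quartile scaling. Without E16.5 replicate 1 or replicate 2 no test was possible, since no residual degree of freedom was left, and at E18.5 Gata3 was 1.06 or -1.20 and Gata2 -3.65 without replicate 1. The alternatives planned for mast and HSPC codes were not run. With UMIs other than mitochondrial, ribosomal protein and globin genes and Gm42418 as denominator, a smaller total by construction, Gata1, Klf1 and Tal1 in EryP1 were 139, 210 and 94.3 CPM, Gata2 and Mitf in P0 Mast3 557 and 130, Zfpm1 in MegP1 238 and Gata3 in P0 TCell5 271. Means over cells were 402 for Gata2 in P0 Mast3 and 222 for Gata3 in P0 TCell5. Thinned to 2000 UMIs, 53.3% of P0 Mast3 cells had Gata2 and 14.8% of EryP1 cells Gata1, and unthinned 95% and 94.2%, with Gata3 in 52.9% of P0 TCell5 cells. Of 546 levels, 251 moved with the denominator, 71 with means over cells, 27 without the 5% of cells with the most UMIs and 19 with cells of at least 1000 UMIs. No paired analysis was possible because the stages after E16.5 have 1 library each. Depth limits the codes of low UMIs, where 3 counts come to 20 CPM in adult Mast4i.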

Other observations

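Among the antibody tags, IL33R (the product of Il1rl1, a mast cell marker) had counts in the second E16.5 library. The mean per cell there was 3.04 in Mast1, 4.03 in Mast2i, 2.88 in Mast2ii and 2.75 in Mono/Mast, and 0.75 to 1.44 in the other clusters of that library. The SD over cells was 2.54 to 3.49 in the former. CD41 (the product of Itga2b) was also highest in Mono/Mast, with a mean of 1.88 against 0.564 to 1.46 in the other clusters. Itga2b was at 2.16 CPM in Mono/Mast and 23.3 in Eos/Bas1. These are raw counts, and how far they follow the target was not tested.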
